A study of Mus musculus with 6 samples.

Results

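The clustered protocadherins of the mouse are 58 genes on chromosome 18 whose symbols begin with Pcdha, Pcdhb or Pcdhg. They were taken from a gene table of 49997 genes by those symbols and by their starts, and every gene of the table with such a symbol lay in this stretch. They span chr18:36930285-37841873 of the mm10 build and form 3 sub-clusters. The alpha sub-cluster holds 14 genes (chr18:36930285-37188897), the beta sub-cluster 22 (chr18:37264998-37521419) and the gamma sub-cluster 22 (chr18:37661775-37841873), of which Pcdhgb8 is a transcribed pseudogene.

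Protocadherins are cadherin-like adhesion proteins of the cell surface. In neurons each cell expresses its own few variable alpha, beta and gamma genes, and the resulting code lets the branches of a neuron recognise and avoid one another. The C-type genes at the ends of the alpha and gamma sub-clusters (Pcdhac1, Pcdhac2, Pcdhgc3, Pcdhgc4 and Pcdhgc5) are expressed more uniformly across neurons. Each variable alpha or gamma exon has its own promoter and is spliced to constant exons at the end of its sub-cluster, whereas each beta gene is a single exon. CTCF and cohesin bind at many of these promoters and at enhancers that lie beyond the alpha and the gamma constant exons, and they are known to bring the promoters and the enhancers together.

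Contacts were counted by in-situ Hi-C in mouse embryonic stem cells of strain 129, with MboI as the restriction enzyme. In situ Hi-C ligates pieces of DNA that lie close together in the nucleus, so a contact count says how often 2 stretches were joined. Of the 6 libraries, 3 carry the label wild type (WT) and 3 the genotype label GFP-CTCF-Del8 (Del8), in which CTCF, a DNA-binding protein with an array of zinc fingers, lacks zinc finger 8. The labels do not settle whether the WT cells also carry a GFP tag, nor whether each line is 1 clone. The contact counts hold no expression values, so the cell type could not be checked against its markers, and none of the values below is a level of protocadherin RNA.

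The files gave raw contact counts between 50 kb bins. The WT libraries held 24038030, 24512722 and 36233407 contacts and the Del8 libraries 66266759, 46925260 and 38088173, so every Del8 library was deeper than every WT library, and depth and genotype cannot be told apart. WT replicates 1 and 2 lacked contacts in many bins (39.2% and 39.4% of bins, against 1.68% to 12.9% in the other libraries). Bins short of contacts in any library were therefore left out, which kept 27836 of 47875 autosomal bins.

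The protocadherin stretch covered 19 bins, and 17 of them were usable. The bin of Pcdha10 to Pcdha12 was lost because it was short in WT replicate 1, and the bin of Pcdhb8 because it was short in WT replicates 1 and 2. The remaining bins held the starts of 54 of the 58 genes, 11 alpha, 21 beta and 22 gamma. Median coverage of the usable protocadherin bins was below the typical bin of each library, at 0.7496, 0.766 and 0.758 of the scale in WT against 0.779, 0.773 and 0.789 in Del8. The gamma bins lay above the typical bin in every library, at 1.01 to 1.37 of the scale. The 20 usable bins of the 1 Mb downstream had medians of 1.23 to 1.30, and the 20 upstream bins 0.999 to 1.06. Neighbouring variable exons are close copies of one another, and no label or header says how reads that fit several copies were handled. Its part in the results was not tested.

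The gene models set what a 50 kb bin can resolve. All 14 alpha models end within 2 kb of one another and so do all 22 gamma models, because they share constant exons, and their lengths run from 43986 to 257373 bases (alpha) and from 22328 to 180096 (gamma). The beta genes are short, at 2340 to 5271 bases with a median of 3417.5. A bin therefore stands for the starts of several genes: 6 for Pcdha4 to Pcdha9 and 8 for Pcdhga6 to Pcdhga10. The table also lists 3 predicted models, Gm37013, Gm38666 and Gm38667, which start among the alpha genes and end at the last gamma base.

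In Del8 the protocadherins gave a larger share of their contacts to the 1 Mb downstream, on the side of Diaph1 and Hdac3, and a smaller share to themselves. The downstream share was 18.7%, 19.1% and 18.6% in the WT libraries, in the order of their replicate numbers, against 28.0%, 27.9% and 28.0% in the Del8 libraries. These percentages are of all contacts that a usable protocadherin bin made with another usable bin of chromosome 18, 9956 to 12954 contacts in WT against 14860 to 23944 in Del8. The groups did not overlap, and the difference of 9.16 percentage points compares with SDs of 0.286 (WT) and 0.0744 (Del8, n = 3 each). Such shares were not computed for other stretches of the genome, so how often they separate these libraries elsewhere is not known.

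The other shares were lower in every Del8 library. Contacts among the protocadherin bins made up 35.3%, 34.5% and 31.9% in WT against 30.0%, 29.9% and 29.9% in Del8. The 1 Mb upstream took 9.763%, 10.05% and 10.04% in WT against 9.02%, 8.23% and 8.77% in Del8. The rest of the chromosome took 36.2%, 36.3% and 39.5% in WT against 33.0%, 34.0% and 33.3% in Del8. Since the 4 shares add up to the whole, they are not independent of one another. For each share the two-sided exact permutation test gave p = 0.10, the smallest that 3 against 3 can give, and 0.10 after adjustment over the 4 shares.

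**Figure D1:**
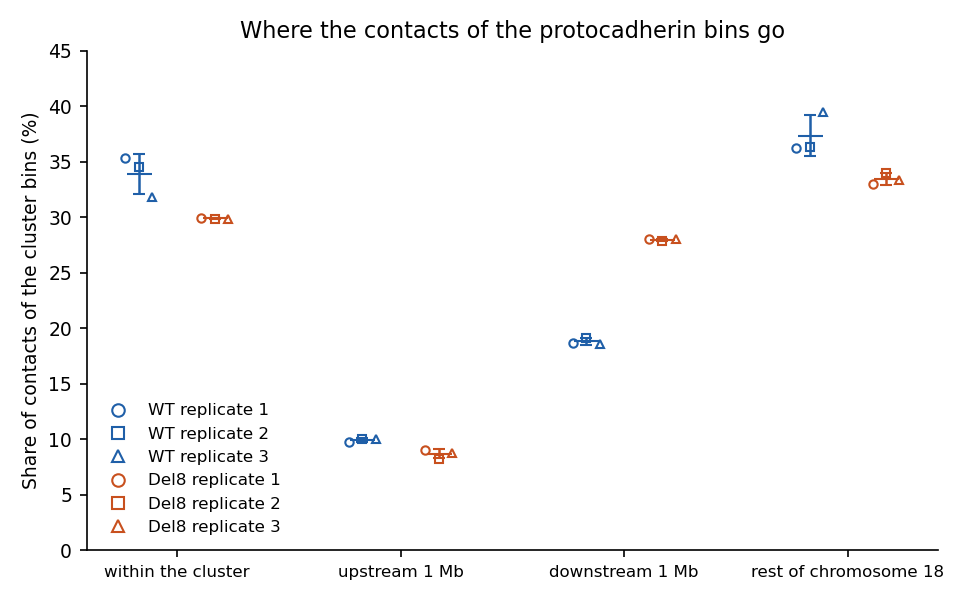
Share of the contacts of usable protocadherin bins (percent, vertical axis) that fell within the cluster, in the 1 Mb upstream, in the 1 Mb downstream and on the rest of chromosome 18. Each point is 1 library (WT in blue, Del8 in orange), bars are the mean and SD of 3 libraries, and the downstream share is 18.6% to 19.1% in WT against 27.9% to 28.0% in Del8.

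To ask which sub-cluster gained contact, balanced contact was set against the chromosome 18 mean for equal distance (observed over expected, where 1 is the chromosome's average) and averaged over the bin pairs of each block. The beta genes differed most. Their contact with the 1 Mb downstream was 0.450, 0.559 and 0.554 of the expected contact in WT against 1.11, 1.10 and 1.10 in Del8, a 2.12-fold difference of the means (0.521 ± 0.0615 against 1.10 ± 0.00606, SD, n = 3 each). The WT libraries lay at about the same low level, and the Del8 libraries all lay slightly above the chromosome's average. These values rest on 329, 390 and 496 contacts in WT against 1839, 1328 and 1165 in Del8.

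Contact of the alpha genes with the downstream 1 Mb was 0.5003, 0.380 and 0.452 in WT against 0.699, 0.760 and 0.863 in Del8, a 1.75-fold difference. For the gamma genes, which lie nearest to it, it was 0.684, 0.6604 and 0.677 in WT against 0.887, 0.872 and 0.910 in Del8, a 1.32-fold difference. In all 3 sub-clusters every Del8 library exceeded every WT library. By two-sided exact permutation tests, p was 0.10 for each and 0.136 after adjustment over the 15 blocks compared, and no smaller p can be had with 3 against 3. The downstream 1 Mb made slightly less contact with itself in Del8 (0.959 ± 0.00574 in WT, 0.894 ± 0.00665 in Del8, SD, n = 3 each). Of the 15 blocks, 11 did not overlap between the groups. Among them were the downstream 1 Mb with itself and with the upstream 1 Mb, which hold no clustered protocadherin. Blocks elsewhere in the genome were not computed.

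Contact with the 1 Mb upstream lay below the chromosome's average in both groups and was not called higher for any sub-cluster. For the alpha genes it was 0.347, 0.337 and 0.396 in WT against 0.374, 0.319 and 0.358 in Del8, and the groups overlapped (two-sided exact permutation test, p = 0.80). For the beta genes it was 0.454, 0.434 and 0.483 in WT against 0.343, 0.302 and 0.321 in Del8. For the gamma genes it was 0.689, 0.573 and 0.640 in WT against 0.463, 0.449 and 0.429 in Del8. The beta and gamma values were lower in every Del8 library by 0.50 on the log2 scale (exact permutation p = 0.10 each, 0.136 adjusted), but with the looser screen of bins the gamma difference changed sign (0.13).

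**Figure D2:**
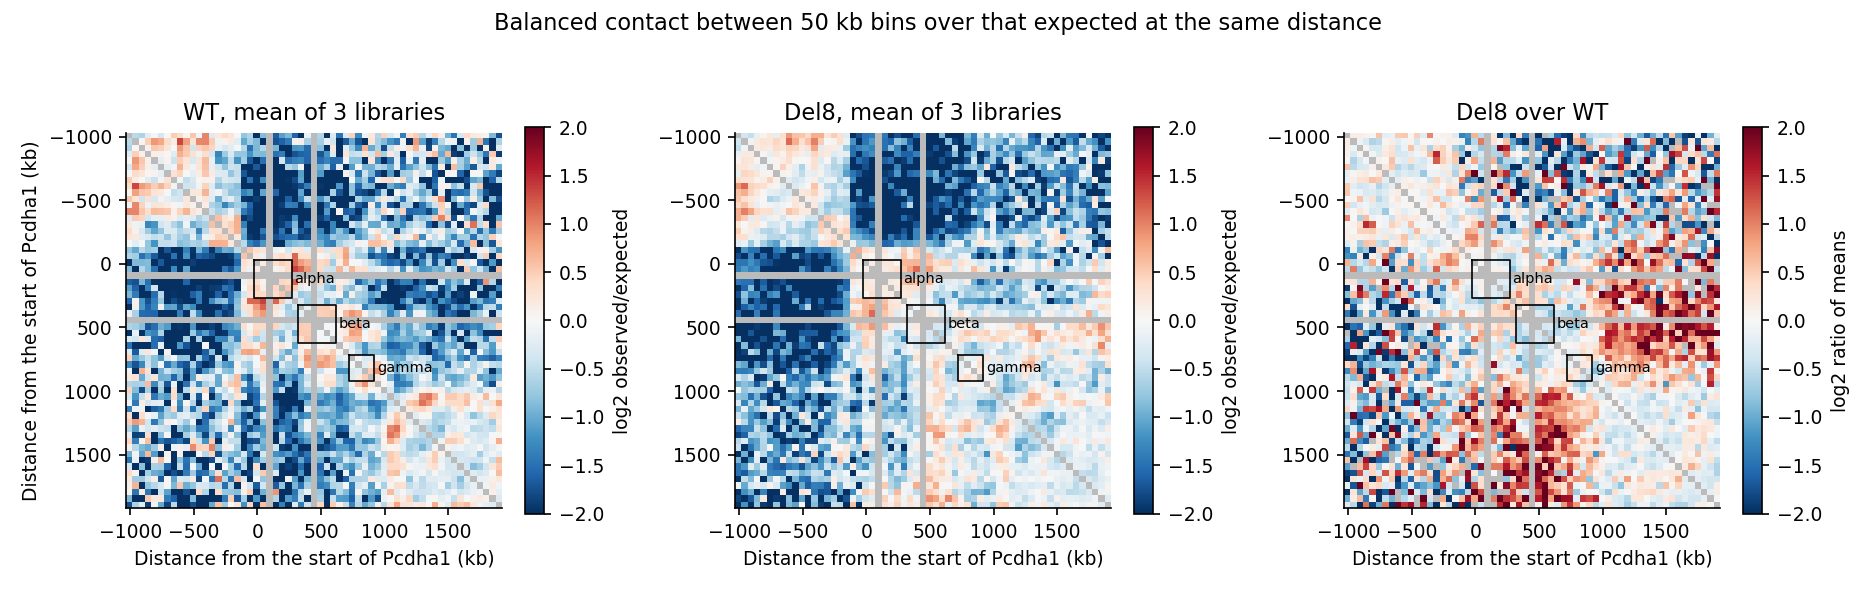
Balanced contact over that expected at the same distance, as log2, between 50 kb bins from 1 Mb before to 1 Mb after the protocadherins, for the mean of 3 WT libraries, the mean of 3 Del8 libraries and the ratio of the means. Both axes give the distance from the start of Pcdha1 in kb, black squares outline the sub-clusters, grey marks unusable bins and the diagonal, and values past 2 either way, cells without contacts included, take the end colours. The block between the beta genes and the downstream 1 Mb is red in the ratio (2.12-fold in the block mean).

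Within the alpha sub-cluster contact was 1.25, 1.23 and 1.30 of the expected level in WT against 1.09, 1.21 and 1.14 in Del8. Every Del8 library was lower, with a difference of -0.14 (log2, two-sided exact permutation test, p = 0.10, 0.136 adjusted). The alpha bins also had lower mean contact in Del8 with the bin directly beyond their constant exons, which holds no gene start. Averaged over the 5 alpha bins, contact with it was 1.78, 1.97 and 1.81 in WT, above their contact with any other protocadherin bin. In Del8 it was 1.32, 1.44 and 1.35, and the bins of Pcdhb1 and Pcdhb2 (mean 1.46) and of Pcdhb3 to Pcdhb7 (1.47) stood higher. This average was not tested. The enhancers of the alpha genes are known to lie on that side, but the gene table marks no enhancer and a 50 kb bin does not resolve one.

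Of these pairs, the bin of Pcdha4 to Pcdha9 with the bin beyond the constant exons fell. Its contact was 1.89, 3.33 and 2.50 in WT against 1.08, 1.78 and 1.57 in Del8, on 33, 60 and 43 contacts and 36, 40 and 33 contacts. The WT libraries spread widely and all lay above the Del8 libraries (log2 difference -0.86, SE 0.21, edgeR adjusted p = 0.0128 over all pairs of the genome). Without WT replicate 2 it was -0.62 with an edgeR adjusted p of 0.247, and without Del8 replicate 1 it was -0.62 with 0.211. The other alpha bins, chosen after their values were seen, had log2 differences between Del8 and WT in their own pair with that bin of -0.53 (Pcdha1 to Pcdha3), -0.52 (Pcdhac1), -0.27 (Pcdhac2) and 0.41 (the bin of the constant exons themselves), and edgeR called none of them (adjusted p = 0.148 to 0.557).

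Contact between alpha and beta genes was higher in every Del8 library. That block stood at 1.15, 0.904 and 1.08 in WT against 1.25, 1.21 and 1.27 in Del8 (two-sided exact permutation test, p = 0.10, 0.136 adjusted). Averaged over the other sub-cluster, the groups separated for the bins of Pcdhac1, Pcdhb3 to Pcdhb7 and Pcdhb9 to Pcdhb14. For the remaining alpha and beta bins they overlapped. The largest single difference was between the bin of the alpha constant exons and the bin of Pcdhb1 and Pcdhb2, 100 kb apart. It stood at 0.635, 0.327 and 0.843 in WT against 1.36, 0.962 and 1.21 in Del8 (log2 difference 0.98, edgeR adjusted p = 0.009), and it was the single pair among protocadherin bins that rose. Without WT replicate 2 or without Del8 replicate 1 no such pair was called, and without WT replicate 3 there were 2. Contact between alpha and gamma genes was 0.805, 0.731 and 0.804 in WT against 0.930, 0.7498 and 0.841 in Del8, and the groups overlapped (two-sided exact permutation test, p = 0.40).

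Beta genes met one another less in Del8. Contact within the beta sub-cluster was 1.21, 1.24 and 1.196 in WT, above the chromosome's average, and 0.891, 0.928 and 0.850 in Del8, below it (log2 difference -0.45). All WT libraries lay well above all Del8 libraries, and each of the 5 beta bins had lower contact with the other beta bins, from 0.667-fold (Pcdhb20 to Pcdhb22) to 0.777-fold (Pcdhb3 to Pcdhb7) of the WT mean. Contact between beta and gamma genes was 1.23, 1.15 and 1.25 in WT against 1.01, 0.989 and 1.03 in Del8, again without overlap. Each of these 2 blocks had an exact permutation p of 0.10, with 0.136 after adjustment.

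Seen by gamma bin, the groups separated in contact with beta bins at the first gamma genes and overlapped at the later ones. The bin of Pcdhga1 to Pcdhga5 made contact with beta bins at 1.68, 1.45 and 1.61 in WT against 1.13, 1.03 and 1.04 in Del8. The bin of Pcdhga6 to Pcdhga10 stood at 1.61, 1.51 and 1.45 in WT against 1.10, 1.196 and 1.01 in Del8. For the bins of Pcdhgb7 to Pcdhga12 and of the C-type genes Pcdhgc3 to Pcdhgc5 the groups overlapped, with means of 0.829 and 0.914 in WT against 0.928 and 0.932 in Del8. Whether the gamma bins differ from one another in this was not tested.

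Contact within the gamma sub-cluster was close to average in both groups, at 0.965, 1.03 and 1.02 in WT against 1.02, 1.08 and 1.06 in Del8, and the groups overlapped (two-sided exact permutation test, p = 0.30). What differed was contact of some of its bins past the constant exons. The bin of Pcdhgb7 to Pcdhga12 with the first bin beyond the gamma sub-cluster, which lies within Diaph1, stood at 1.92, 2.10 and 1.66 in WT against 0.962, 1.14 and 1.03 in Del8. It was enriched in every WT library and near the chromosome's average in every Del8 library, on 91 to 113 contacts in WT against 67 to 103 in Del8. It fell by 0.87 (log2, SE 0.14, edgeR adjusted p = 5.18e-06) and was called whichever single library was left out, but not without WT replicates 1 and 2 together (-0.68, edgeR adjusted p = 0.139).

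Another 2 pairs at this edge fell, and they were named after their values were seen. Pcdhga6 to Pcdhga10 with the same bin stood at 1.49, 1.43 and 1.51 in WT against 1.04, 0.860 and 0.907 in Del8 (log2 difference -0.64, edgeR adjusted p = 0.010). Pcdhgb7 to Pcdhga12 with the bin of Hdac3, a histone deacetylase gene, stood at 1.17, 1.36 and 1.28 in WT against 0.873, 0.733 and 0.722 in Del8 (-0.69, edgeR adjusted p = 0.025). The first gamma bin, of Pcdhga1 to Pcdhga5, gave 0.33 with the same bin within Diaph1 (edgeR adjusted p = 0.436). The bin of Pcdhgc3 to Pcdhgc5, which holds the constant exons, gave -0.31 with the bin within Diaph1 and -0.13 with that of Hdac3. Neither was called (edgeR adjusted p = 0.143 and 0.773). The 3 falling pairs at this edge were the only pairs with the downstream 1 Mb that edgeR called lower, and 1 was called without WT replicate 3 or without Del8 replicate 2.

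**Figure D3:**
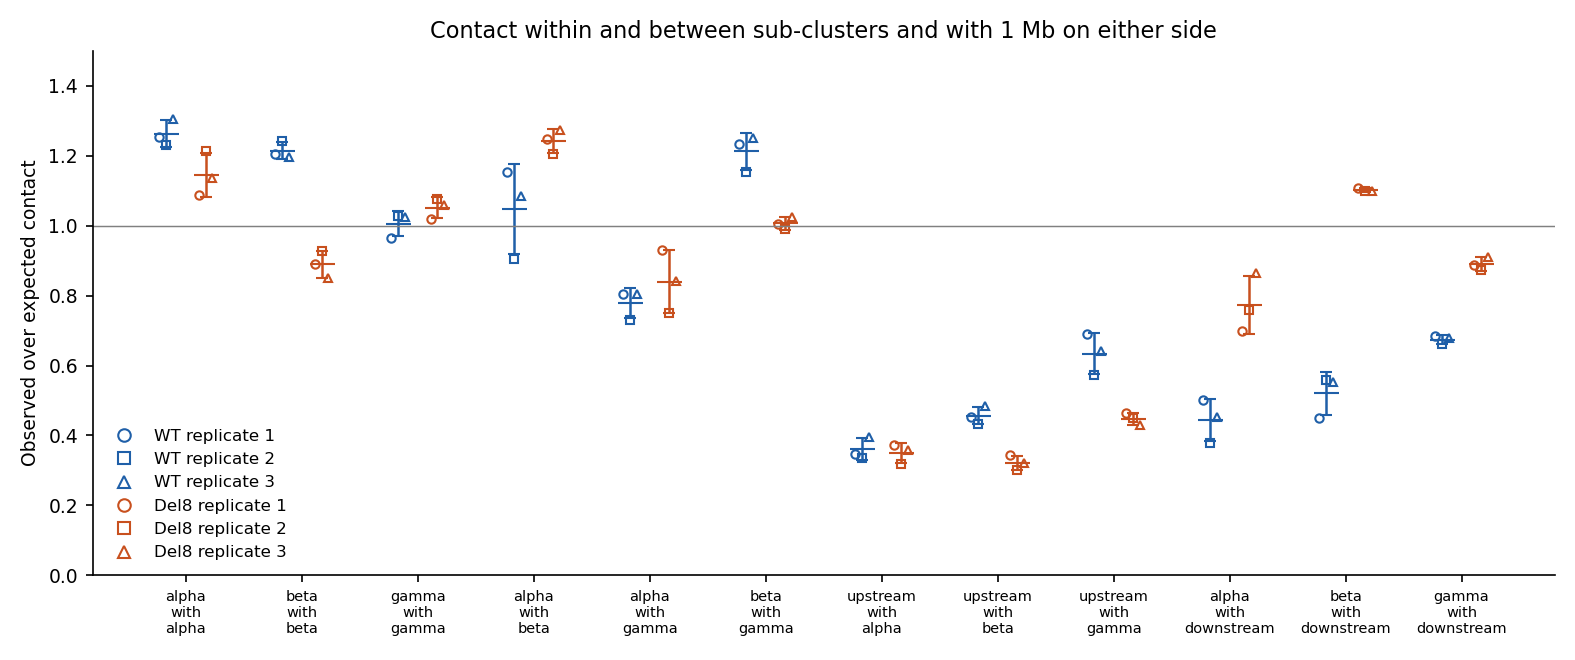
Observed over expected contact (vertical axis) within and between the alpha, beta and gamma sub-clusters and with the 1 Mb upstream and downstream. Points are libraries, bars the mean and SD of 3 libraries, and the line at 1 is the average of chromosome 18. Beta contact with the downstream 1 Mb is 0.521 in WT against 1.10 in Del8, and contact among beta genes is 1.21 and 0.890.

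Insulation scores show where contact is cut off along the stretch. The score of a bin is log2 of the mean contact across it in a 500 kb square over the chromosome's mean, so a low score marks a border, and adjacent bins are scored on largely the same contacts. Of the 17 protocadherin bins, 5 rose and 7 fell in Del8 (limma, adjusted p below 0.05). Over all 22056 scored bins 32.3% rose and 30.5% fell, so the count of risen bins was near the background. In 12 bins the groups did not overlap, as they did not in 67% of all scored bins. The median difference was -0.10 over the protocadherin bins and 0.0015 over all bins.

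The direction followed the sub-clusters. Of 5 alpha bins 4 fell, of 5 beta bins 3 fell, all 4 gamma bins rose, and of the 3 bins between sub-clusters 1 rose, that of Slc25a2 and Taf7, between the beta and gamma genes (0.12). The C-type genes went with their sub-cluster: the bins of Pcdhac1 and Pcdhac2 fell (-0.17 and -0.18), and that of Pcdhgc3 to Pcdhgc5 rose (0.44). Since neighbouring squares overlap, these bins are not separate observations.

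In the alpha sub-cluster the scores climbed from the border upstream of Pcdha1 towards the constant exons in every library. The bin of Pcdha1 to Pcdha3 scored -0.77, -0.55 and -0.75 in WT against -0.68, -0.90 and -0.78 in Del8 and was not called (limma adjusted p = 0.202). In a 1 Mb square it was called as fallen (-0.26, limma adjusted p = 7.68e-05). The bin of Pcdhac2, a C-type gene, scored 0.15, 0.23 and 0.17 in WT against 0.01, 0.01 and -0.01 in Del8, without overlap (difference -0.18, SE 0.03, limma adjusted p = 0.000183). The bins of Pcdha4 to Pcdha9 (-0.17) and of the constant exons (-0.11) also fell.

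In the beta sub-cluster the bin of Pcdhb15 to Pcdhb19 fell most. It scored -0.03, -0.09 and -0.01 in WT against -0.25, -0.25 and -0.23 in Del8 (difference -0.20, SE 0.03, limma adjusted p = 0.000125). The bins of Pcdhb9 to Pcdhb14 (-0.15) and of Pcdhb20 to Pcdhb22 (-0.11) fell with it, and those of Pcdhb1 and Pcdhb2 (0.07) and of Pcdhb3 to Pcdhb7 (-0.10) were not called (limma adjusted p = 0.151 and 0.0757). In a 1 Mb square no beta bin was called: Pcdhb15 to Pcdhb19 stood at -0.04, Pcdhb9 to Pcdhb14 at -0.07 and Pcdhb20 to Pcdhb22 at 0.03 (limma adjusted p = 0.162, 0.0800 and 0.215). A local minimum of the score among these genes, at least 0.2 deep against the lower of its sides, was present in all 3 Del8 libraries (depths 0.398, 0.405 and 0.399) and in 1 WT library, replicate 2 (0.234).

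In the gamma sub-cluster the bin of Pcdhga1 to Pcdhga5 was the least changed. It scored -0.40, -0.44 and -0.34 in WT against -0.10, -0.08 and -0.06 in Del8 (difference 0.32, SE 0.03, limma adjusted p = 8.56e-06). The next bin, of Pcdhga6 to Pcdhga10, scored -0.57, -0.52 and -0.40 in WT against 0.02, -0.02 and 0.06 in Del8. WT replicates 1 and 2 had a local minimum there (depths 0.217 and 0.235) that WT replicate 3 and the 3 Del8 libraries lacked.

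The largest rise of the surroundings lay outside the genes, in the bin of Hdac3, which begins 58 kb beyond the last gamma base. It scored -0.72, -0.72 and -0.67 in WT against 0.01, -0.02 and -0.05 in Del8 (difference 0.68, SE 0.03, limma adjusted p = 1.38e-07), and it ranked 27th among rises of all 22056 scored bins, with 0.122% of bins at or above it. All 3 WT libraries had their deepest minimum on the gamma side there (depths 0.951, 0.952 and 0.914). No Del8 library had one at that bin, and Del8 replicates 1 and 3 had a shallow one in the next bin, of Rell2, Fchsd1 and Arap3 (0.201 and 0.268). The bin between the gamma genes and Hdac3 rose by 0.61.

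The border on the other side remained. In the bin of Wdr55, Dnd1, Hars, Hars2 and Zmat2, upstream of Pcdha1, the score was -1.66, -1.87 and -1.55 in WT against -1.59, -1.79 and -1.75 in Del8 (difference -0.02, SE 0.09, limma adjusted p = 0.888). Every library had its deepest minimum at this bin or the next (depths 2.28 to 2.75). The largest fall upstream was in the bin of Eif4ebp3, Sra1, Apbb3, Slc35a4 and E230025N22Rik (-0.18, limma adjusted p = 0.00142). In all, 6 upstream bins rose and 3 fell of 20, and downstream 5 rose and 8 fell of 20.

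**Figure D4:**
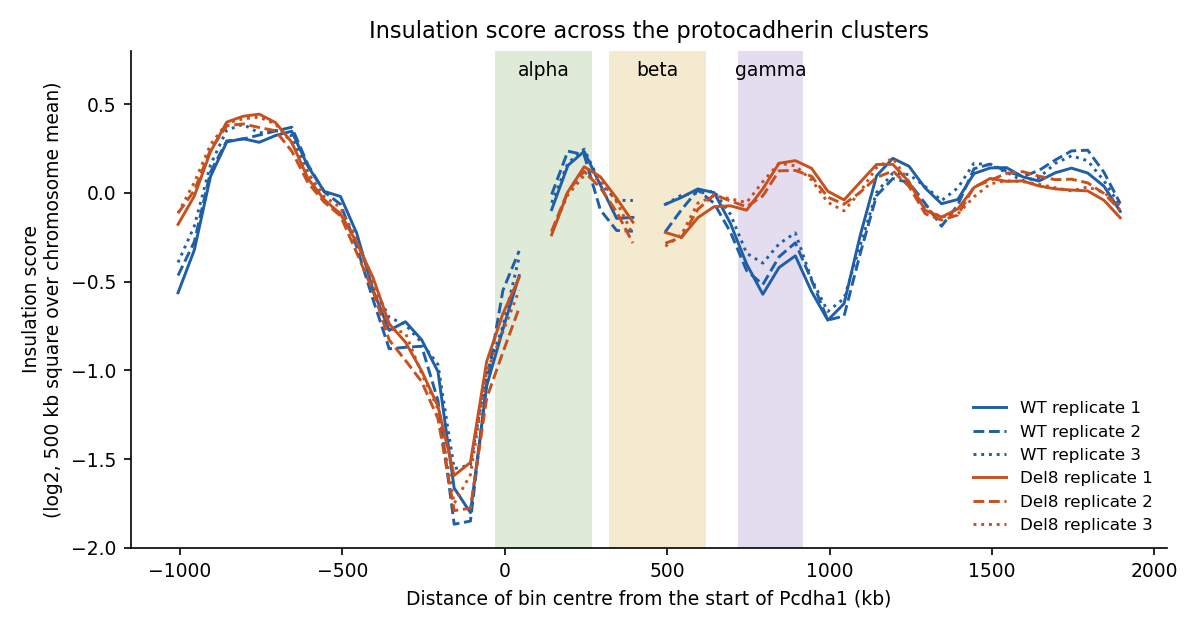
Insulation score (log2, vertical axis) of usable 50 kb bins against the distance from the start of Pcdha1 in kb, 1 line per library (WT in blue, Del8 in orange). The sub-clusters are shaded. The minimum in the Hdac3 bin beyond the gamma genes, near -0.7 in the WT libraries, is absent at that bin in the Del8 libraries, of which replicates 1 and 3 have a shallow one in the next bin, and the deep minimum upstream of the alpha genes is present in all 6.

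The size of the square mattered. In a 250 kb square 3 bins rose and 8 fell. The bins of Pcdhga6 to Pcdhga10 (0.39) and Pcdhgb7 to Pcdhga12 (0.31) still rose, whereas those of Pcdhga1 to Pcdhga5 (0.09) and Pcdhgc3 to Pcdhgc5 (0.06) were not called, and the bin of Slc25a2 and Taf7 fell (-0.14). In that square the bin between the alpha and beta genes also rose, by 0.35, and the bin of Pcdhb15 to Pcdhb19 fell by 0.47. With bins kept on 20 contacts per library alone, limma called none of 36012 bins of the genome (5 protocadherin bins rose and 0 fell at an unadjusted p below 0.05). Most alpha and beta differences then changed sign, also in bins covered in all libraries. The falls of the alpha and beta scores therefore hold only where bins short of contacts in any library are left out.

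Single bin pairs were tested over 338576 pairs of the genome, of which edgeR called 0.853% higher and 0.876% lower in Del8. Of 107 tested pairs between a protocadherin bin and the downstream 1 Mb, 18 were higher (16.8%) and 3 lower (2.80%). The median difference was 0.70 (log2), and 91 of the 107 differences were above 0, where the median of all tested pairs was 0.0055. Groups did not overlap in 59 of these pairs, against 18.7% of all pairs. The filter on counts bears on all of these downstream values, as set out below. Of 107 tested pairs among protocadherin bins, 1 was higher and 6 lower, the median was -0.12, and the groups did not overlap in 35. The higher downstream pairs numbered 7 without WT replicate 1, 8 without WT replicate 2, 10 without WT replicate 3, 9 without Del8 replicate 1, 9 without Del8 replicate 2 and 16 without Del8 replicate 3. The 6 lower pairs among protocadherin bins became 2 without WT replicate 2, 3 without WT replicate 3, 1 without Del8 replicate 1 and 2 without Del8 replicate 3. The median with the downstream side was 0.64 to 0.71 with 1 library left out, but over the same filtered pairs, so it gives no separate support.

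Of the 18 higher pairs, 12 joined a beta bin, 3 a gamma bin and 3 a bin between sub-clusters. The beta bins were called in 12 of 32 tested pairs (median 1.12), and the gamma bins in 3 of 62 (median 0.50). No pair of an alpha bin with the downstream 1 Mb reached the mean count of 10 that testing needed. Pairs 500 kb or more apart were higher in 14 of 63 cases (background 0.58% in that range). Of 44 nearer pairs 4 were higher and 3 lower (background 1.02% and 0.944%). Of the 18 higher pairs, 15 had a WT mean under 10 contacts, so they were tested because they were high in Del8. Neither their number, their folds nor their p-values supports a rise, nor do the median, the signs or the non-overlap of the tested downstream pairs. The p-values of the higher pairs with a WT mean under 10 are not given below. Over all 340 pairs with the downstream side, without a filter on counts, the median difference was 0.82 and edgeR called 7 higher and 2 lower. In that fit 762 of 837791 pairs of the genome were called higher and 898 lower, and their median was 0.033.

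Few pairs with the upstream 1 Mb could be tested. Of 25 tested pairs, out of 340, edgeR called 0 (3 higher and 1 lower at an unadjusted p below 0.05) and DESeq2 also 0, with a median difference of -0.00089. Over all 340 pairs, without a filter on counts, the median was -0.29, with 7 higher and 26 lower at an unadjusted p below 0.05 (edgeR).

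Of the 5 largest rises, 3 joined beta genes and 2 joined bins between the beta and gamma genes to bins far beyond the gamma sub-cluster. Pcdhb15 to Pcdhb19 and Gnpda1, which encodes a glucosamine-6-phosphate isomerase, lie 850 kb apart and had 0, 2 and 1 contacts in WT against 25, 16 and 16 in Del8. The pair was at 0, 0.326 and 0.114 of the expected contact in WT against 1.52, 1.35 and 1.55 in Del8, and with so few WT contacts the fitted difference of 3.23 has little precision (SE 0.68). Pcdhb20 to Pcdhb22 and the bin of Dele1, Pcdh12 and Rnf14, 750 kb apart, had 7, 4 and 3 contacts in WT against 32, 40 and 24 in Del8 (log2 difference 1.87, SE 0.41). Pcdh12 is a protocadherin outside the clusters.

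Pcdhb15 to Pcdhb19 also gained contact with the bin of Rell2, Fchsd1 and Arap3, 500 kb away. It had 4, 12 and 7 contacts in WT against 53, 43 and 31 in Del8 (log2 difference 1.62, SE 0.33), at 0.268, 0.664 and 0.317 of the expected contact in WT against 1.25, 1.42 and 1.21 in Del8. Like the other largest rises, this pair had a WT mean under 10 contacts (7.67), so it was tested because it was high in Del8. The bin of Slc25a2 and Taf7 with that of Dele1, 650 kb apart, ranked second among the rises (log2 difference 2.49, SE 0.60) and had 1, 2 and 2 contacts in WT against 21, 19 and 15 in Del8. The third, between 2 bins without a gene start, also 650 kb apart, had 0, 2 and 6 contacts in WT against 25, 17 and 10 in Del8 (1.89, SE 0.54).

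The largest falls were all over 300 kb or less. Besides the alpha and gamma edge pairs above, Pcdhb3 to Pcdhb7 with Pcdhb20 to Pcdhb22 stood at 1.39, 1.27 and 1.69 in WT against 0.751, 0.948 and 0.670 in Del8 (log2 difference -0.89, SE 0.23, edgeR adjusted p = 0.0179). Pcdhb9 to Pcdhb14 with Pcdhga6 to Pcdhga10 stood at 1.70, 2.01 and 1.73 in WT against 0.892, 1.53 and 0.822 in Del8 (-0.76, edgeR adjusted p = 0.0108). Pcdhb9 to Pcdhb14 with Pcdhga1 to Pcdhga5 stood at 1.53, 1.76 and 1.49 in WT against 0.828, 1.02 and 1.07 in Del8 (-0.73, edgeR adjusted p = 0.0116). In each of these every WT library lay above every Del8 library. The first lost its call without WT replicate 3, Del8 replicate 1 or Del8 replicate 3, the second without WT replicate 2, Del8 replicate 1 or Del8 replicate 3, and the third without WT replicate 2 or Del8 replicate 1 (edgeR adjusted p = 0.0742 to 0.164).

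**Figure D5:**
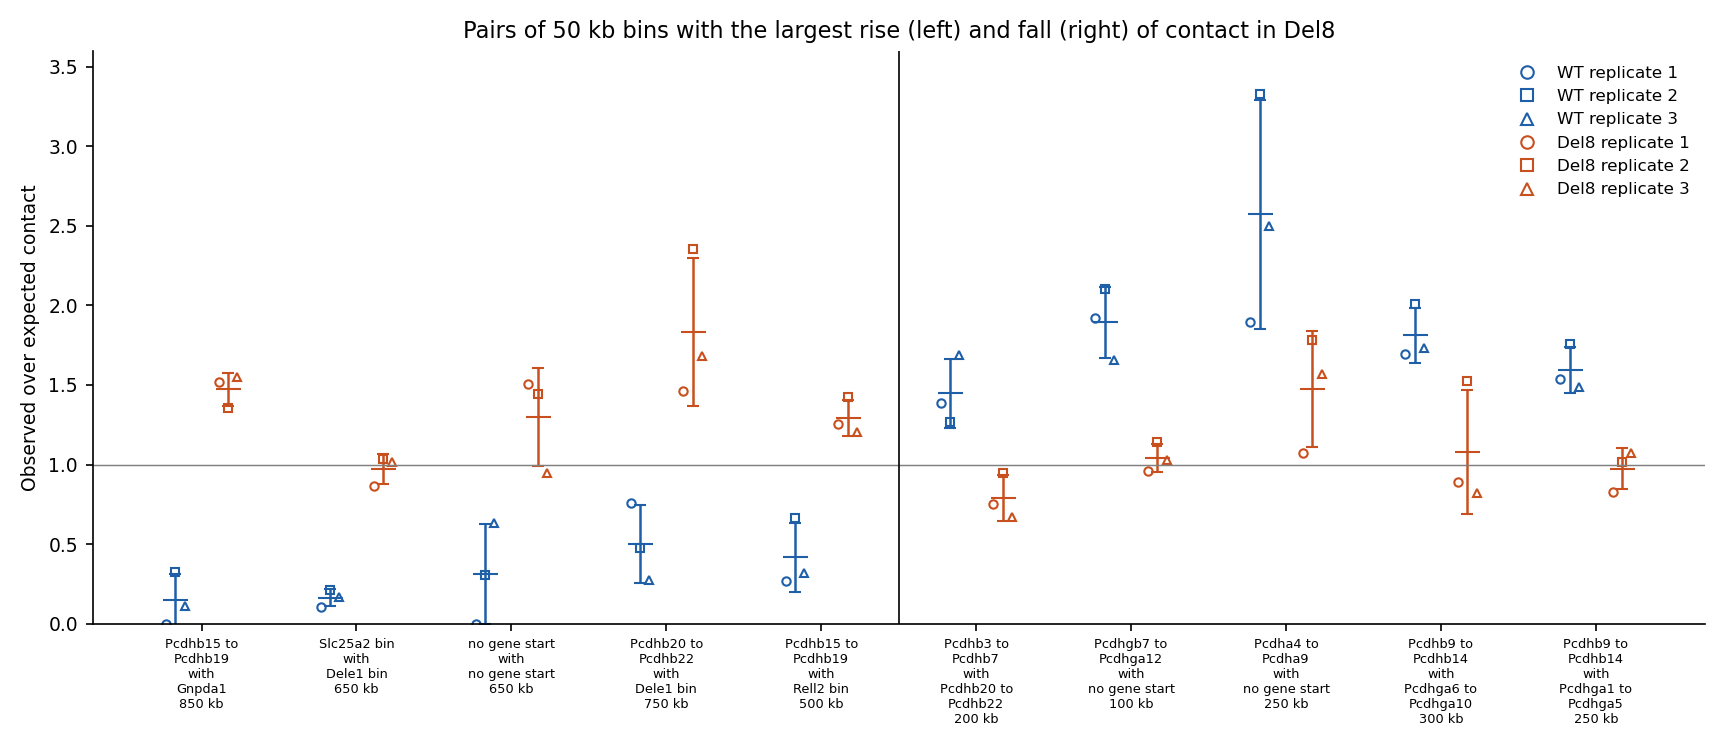
Observed over expected contact (vertical axis) of the 5 bin pairs with the largest rise (left) and the 5 with the largest fall (right), named by the genes that start in each bin, with their distance in kb. Points are libraries, bars the mean and SD of 3 libraries, and the line at 1 is the average at that distance. The beta pairs on the left lie below 1 in every WT library, and all 5 pairs on the left had a WT mean under 10 contacts.

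Seen bin by bin, the higher downstream contact ran through most of the stretch. The mean over the 20 downstream bins was 2.63-fold higher in Del8 for the bin of the alpha constant exons (0.302 ± 0.0544 against 0.793 ± 0.109, SD, n = 3 each), and 2.61-fold for Pcdhb15 to Pcdhb19 (0.495 ± 0.0858 against 1.29 ± 0.109). It was 2.19-fold for Pcdhb9 to Pcdhb14 and 1.84-fold for Pcdhga1 to Pcdhga5. It was smallest for Pcdhgb7 to Pcdhga12 (1.12-fold) and Pcdha4 to Pcdha9 (1.17-fold), and in those bins the groups overlapped. The last gamma bin, with the C-type genes, stood at 1.21-fold. Differences between bins were not tested.

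Without WT replicates 1 and 2, which leaves 1 WT library whose spread is assumed to be like that of the others, edgeR called none of the pairs in the stretch, and 197 higher and 245 lower in the genome. The median difference was then 0.69 (log2) for the tested downstream pairs and -0.07 for those among protocadherin bins. These are the pairs that the count filter over all libraries had kept, so the downstream median does not support a rise. DESeq2 with the same offsets called 3 downstream pairs higher and 1 lower, and 0 pairs among protocadherin bins (5 higher and 15 lower at an unadjusted p below 0.05), of 276 higher and 500 lower in the genome.

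Related genes elsewhere were read in the same way. Of 12 protocadherins outside the clusters, 3 start in a scored bin: Pcdh8 fell (-0.16), and Pcdh1 (-0.05) and Pcdh12 (-0.04), both in the downstream 1 Mb, were not called by limma. Of 14 genes for regulators of the clusters or of cohesin, 10 start in a scored bin, of which 3 rose and 1 fell. They were Setdb1, a histone methyltransferase gene (0.22), the DNA methyltransferase genes Dnmt3b (0.18) and Dnmt3a (0.07), and the cohesin subunit gene Smc3 (-0.21), beside a background of 32.3% risen and 30.5% fallen bins. Of the 13 protocadherin bins with a gene start 4 rose and 6 fell, which places 22 genes in risen and 22 in fallen bins.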

How the data were processed

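The authors deposited raw contact counts per pair of 50 kb bins, 1 file per library, on the mm10 build per the submitters' processing notes. The aligner and filters were not given in the sources used here. Members and gene lists were chosen with earlier results of these data known. RefSeq's GRCm38.p6 table supplied the gene coordinates. To be used, a bin needed, in each library, scaled coverage of 0.5 or more of the third-highest library's and over 0.1 of that library's scale. Iterative correction balanced each chromosome's map without the diagonal. Insulation scores used 500 kb squares at least 50% usable and were tested with limma 3.58.1 over all scored bins. Pairs from 50 kb to under 2 Mb apart with a mean count of 10 or more were tested with edgeR 4.0.16 (quasi-likelihood), with offsets for bin bias and distance. DESeq2 1.42.0 was an alternative. Adjustment was by Benjamini-Hochberg with a threshold of 0.05. Blocks and shares were compared by two-sided exact permutation tests over libraries. The p-values measure the spread between libraries, which the series' text calls biological replicates. Every scored bin was named by the genes that start in it, and of single pairs the 5 largest rises and 5 largest falls. The statistics were tested on simulated data. Same-numbered libraries did not deviate together, so the numbers do not pair them. No sequence is printed.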

Additional observations from a re-analysis of the deposited data

How the results depend on the processing

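Leaving out 1 library at a time gave 5 to 6 risen and 7 to 8 fallen protocadherin bins by insulation score (main result 5 and 7), 0 to 2 higher and 1 to 5 lower pairs among protocadherin bins (1 and 6), 7 to 16 higher and 1 to 3 lower pairs with the downstream side (18 and 3), and 0 with the upstream side. Without WT replicates 1 and 2 each of these counts of pairs was 0. The cause was not tested.

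The looser screen gave 0 risen and 0 fallen bins, of none in the genome, and 0 lower pairs among protocadherin bins or with the downstream side. Lower calls were few everywhere under this screen, with 63166 pairs of the genome called higher and 569 lower of 465814. With it the bins of Pcdhac1 (0.32), Pcdhac2 (0.28), the alpha constant exons (0.31), Pcdhb3 to Pcdhb7 (0.015), Pcdhb9 to Pcdhb14 (0.67), Pcdhb15 to Pcdhb19 (0.55), Pcdhb20 to Pcdhb22 (0.56) and the bin after the beta genes (0.52) changed sign, as did contact of the upstream side with gamma (0.13) and with the downstream side (0.65) and contact within gamma (-0.11; -0.0010 as a ratio of sums). Upstream-alpha contact, whose groups overlap, ran from -0.088 to 0.031 with 1 library left out and changed sign without WT replicate 3 (0.031) and without Del8 replicate 2 (0.027). In a 250 kb square 3 bins rose and the Slc25a2 bin reversed (-0.14). In a 1 Mb square the falls of Pcdhb9 to Pcdhb14 (-0.07) and Pcdhb15 to Pcdhb19 (-0.04) were not called, and Pcdhb20 to Pcdhb22 (0.034) and the bin after beta (0.14) reversed. The latter ran from -0.040 to 0.0026 with 1 library left out, and the bin of Pcdhb1 and Pcdhb2 was -0.021 without WT replicates 1 and 2.

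For pairs (higher and lower among protocadherin bins, then with the downstream side), no filter on low counts gave 0, 0, 7 and 2, DESeq2 gave 0, 0, 3 and 1, and 100 kb bins gave 0, 4, 31 and 1, with 2 upstream pairs called. The 100 kb fit tested 21 pairs among protocadherin bins, 60 downstream and 26 upstream. Over the genome it called many more pairs than the main fit, 7549 higher and 6511 lower of 149944. TMM factors gave 0 higher pairs among protocadherin bins. With the replicate number as a block, 5 bins rose and 8 fell, 15 downstream pairs were higher and 3 lower, and no library correlated best with its own number. All 32 contact shares recomputed under alternatives kept their direction, as did 189 block contacts, apart from the 6 given above. Where the groups did not overlap, as in every share and in 11 of the 15 blocks, leaving out libraries could not change the direction. For the shares only the looser screen could have changed it, so these counts give no separate support. Shallow WT libraries limit pairs over 500 kb, and alpha pairs with the downstream side could not be tested.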
